A study of Mus musculus with 96 samples.

Results

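The 10 genes described here carry out or drive de novo lipogenesis, and they were followed in liver and pancreatic islets: Srebf1, Acly, Acaca, Acacb, Fasn, Me1, Thrsp, Scd1, Elovl6 and Elovl5. They were taken by symbol, and all 10 were found among the 21990 genes listed, of which 20155 have values. The samples came from male C57BL/6N mice, an inbred strain bought at 4 weeks of age and kept with free access to food. The mice of one group were fed chow (CD, 13.5% fat) and those of the other a high-fat diet (HFD, 60% fat) for 4, 8, 12, 16, 20 or 24 weeks, with 4 mice per diet and week. The islets and the liver of each of the 48 mice were sequenced separately, giving 96 libraries. The 2 diets also differ in ingredients other than fat, so a diet difference covers all of these. Islets were released with collagenase and picked by hand, and liver was taken as homogenised tissue from one region. In bulk RNA of this kind, fewer cells of a type and less RNA per cell cannot be told apart.

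De novo lipogenesis builds fatty acids from carbohydrate. ATP citrate lyase (Acly) makes cytosolic acetyl-CoA from citrate, acetyl-CoA carboxylases (Acaca in the cytosol, Acacb at the mitochondrial surface, where its product restrains fatty acid oxidation) make malonyl-CoA, and fatty acid synthase (Fasn) joins these units into palmitate with NADPH, part of which comes from malic enzyme (Me1). Elovl6 lengthens palmitate to stearate, stearoyl-CoA desaturase (Scd1) turns stearate into oleate, and Elovl5 lengthens polyunsaturated chains. Srebf1 encodes SREBP1, the insulin-responsive transcription factor of the pathway, which is made as a membrane-bound precursor and works only after cleavage, a step that RNA does not show. Thrsp (Spot 14) is a small protein that stimulates lipogenesis. In liver the pathway follows feeding, insulin and carbohydrate.

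Values are FPKM, fragments scaled to transcript length and to the library total, so levels can be set side by side between genes. Diet and time were tested with limma on log2(FPKM + 1), and a gene was called at a Benjamini-Hochberg adjusted p under 0.05 over all genes tested. A fold change on this scale understates the change of genes near 1 FPKM. Liver libraries carried a median hepatocyte marker sum of 66955 FPKM (CD) and 67337 FPKM (HFD), and all 8 hepatocyte markers were detected. Insulin transcripts made up 53.7% to 75.1% of the FPKM total of the islet libraries, and at week 12 their mean share was 57.0% ± 2.38 (SD, n = 4) in CD and 69.6% ± 2.10 (SD, n = 4) in HFD islets. Liver libraries of 2 mice stood out for insulin RNA, with Ins2 at 2467 FPKM in mouse CD306 and 1738 FPKM in mouse CD407 against a median of 7.22 FPKM over the 48 livers, and mouse CD304 had 257 FPKM. The liver library of mouse CD304 (CD, week 12) stood apart in the lipogenic genes themselves, and results that rest on it are given with and without it.

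The 2 tissues used the pathway's genes in very different proportions. In CD livers Scd1 had the highest mean of the 10 genes over all weeks, at 598 ± 647 FPKM (SD, n = 24) with a range of 32.7 to 2653 FPKM, and it made up on average 47.6% of the summed FPKM of the 10. That place was not held in every library: Elovl5 exceeded Scd1 in 4 of the 24 CD livers, and at week 24 the means were 119 ± 52.9 FPKM for Elovl5 and 88.6 ± 42.3 FPKM for Scd1 (SD, n = 4). In CD islets Acly held that place, at 370 ± 60.1 FPKM (SD, n = 24) with a range of 292 to 468 FPKM and 75.7% of the sum. Acly was thus high in every islet library, while hepatic Acly lay between 14.8 and 71.7 FPKM and the groups did not overlap. Islet Scd1 was at 1.44 ± 0.480 FPKM (SD, n = 24) and islet Acacb at 0.550 ± 0.134 FPKM (SD, n = 24), the lowest of the 10.

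Within mice, 8 of the 10 genes differed between liver and islets, where 95.2% of the 13321 genes tested did. Scd1 was higher in liver by 7.14 ± 0.24 (log2 fold change ± SE, 24 mice), Thrsp by 4.87 ± 0.26, Me1 by 2.30 ± 0.11 and Acacb by 2.03 ± 0.10. Smaller differences in the same direction were found for Elovl5 (0.79 ± 0.12), Srebf1 (0.53 ± 0.13, adjusted p = 0.00027) and Acaca (0.27 ± 0.10, adjusted p = 0.010). Acly was the only gene called higher in islets, with a log2 fold change of liver against islets of -3.70 ± 0.10. Fasn (0.19 ± 0.19, adjusted p = 0.32) and Elovl6 (0.26 ± 0.16, adjusted p = 0.11) did not pass. Over all genes the median of the same difference was -0.64. Insulin transcripts took a median of 67.1% of the FPKM total in islets and 0.0018% in livers. FPKM is relative to the library total, and what part this share has in the differences, the smaller ones above all, was not tested. Another desaturase gene, Scd2, named here after its values were seen, averaged 20.8 FPKM in CD islets and 0.687 FPKM in CD livers.

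**Figure D1:**
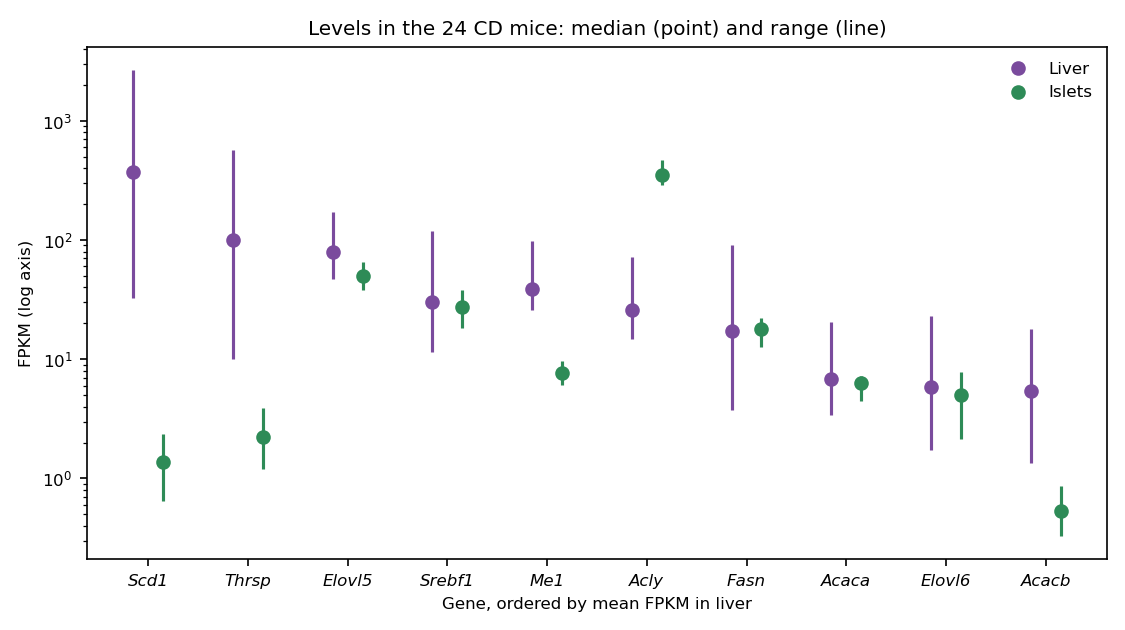
FPKM (log axis) of the 10 genes in the 24 CD mice, with the median as a point and the lowest to highest library as a line, for liver and islets. The Acly ranges do not overlap, with islets higher, and the Scd1, Thrsp, Me1 and Acacb ranges do not overlap, with liver higher.

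The order of the levels was firmer in islets than in liver. In CD islets the order was Acly, Elovl5, Srebf1, Fasn, Me1, Acaca, Elovl6, Thrsp, Scd1 and Acacb. Each of the first 5 exceeded the next gene in all 24 libraries, whereas Acaca exceeded Elovl6 in 19 and Thrsp exceeded Scd1 in 18 of 24. In CD livers the order by mean was Scd1, Thrsp, Elovl5, Srebf1, Me1, Acly, Fasn, Acaca, Elovl6 and Acacb. There Thrsp exceeded Elovl5 in 12 and Srebf1 exceeded Me1 in 10 of 24 libraries, so these neighbours do not differ beyond their spread.

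The lipogenic genes were among the most variable genes of the liver. The SD of log2(FPKM + 1) between liver mice of one diet and week was 1.20 for Thrsp, 1.17 for Scd1, 0.90 for Fasn, 0.70 for Elovl6, 0.66 for Srebf1 and 0.60 for Elovl5, against a median of 0.18 over the genes tested. All 10 lay at or above the 95.8th percentile of genes in this spread. In islets, by contrast, Srebf1 had an SD of 0.13 beside a median of 0.14, and the 9 genes past the filter on low values ranged from the 49.5th percentile (Srebf1) to the 92.5th (Scd1). The spread sets how large a diet difference could be seen in liver with 4 mice per group.

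In CD livers 8 of the 10 genes changed over the weeks, where 55% of the 10879 genes tested did. Fasn averaged 37.1 ± 7.84 FPKM in week 4 livers, 47.9 ± 21.4 FPKM in week 8 livers, 15.3 ± 18.5 FPKM in week 12 livers, 7.78 ± 4.97 FPKM in week 16 livers, 46.9 ± 36.4 FPKM in week 20 livers and 12.1 ± 3.69 FPKM in week 24 livers (SD, n = 4 each, adjusted p = 0.0016). The other genes that passed were Acacb (8.6e-05), Srebf1 (0.0014), Thrsp (0.0014), Scd1 (0.0022), Acly (0.0039), Elovl6 (0.004) and Acaca (0.0071), with adjusted p in parentheses. Week 20 combined high and low mice: Fasn was 61.8 and 91.5 FPKM in mice CD501 and CD502 but 18.2 and 16.2 FPKM in CD505 and CD507. Me1 (adjusted p = 0.083) and Elovl5 (adjusted p = 0.54) did not pass. The mice of each week differ in age and in the day of collection, and these cannot be told apart. Of 8 genes that liver induces on fasting, 2 changed over the same weeks, and of the 9 clock genes tested 1 did. The part that feeding state or time of day has in the changes over weeks was not tested.

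Over all weeks, Srebf1 was the only one of the 10 genes called between HFD and CD livers, where 42.6% of genes were. Its log2 fold change was 0.65 ± 0.19 (SE, 24 mice per diet, adjusted p = 0.0049), and its mean was 73.6 ± 46.2 FPKM (SD, n = 24) in HFD and 48.9 ± 33.8 FPKM (SD, n = 24) in CD livers. Without mouse CD304 the estimate was 0.73, and without the livers rich in insulin RNA it was 0.62 (CD306 left out) and 0.69 (CD407 left out). Thrsp (0.78 ± 0.34, adjusted p = 0.062) and Elovl5 (0.40 ± 0.17, adjusted p = 0.056) lay just outside the threshold. Thrsp passed without mouse CD304 (0.92, adjusted p = 0.019), which was picked for its high values of Thrsp and other members. The 7 other estimates lay between -0.56 ± 0.33 for Scd1 and 0.22 ± 0.25 for Fasn. The median over the 10 genes was 0.07 and over all genes 0.08.

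Srebf1 was not raised at every week. At week 4 it was 75.5, 179.8, 205.1 and 72.6 FPKM in HFD and 61.3, 47.9, 50.25 and 29.2 FPKM in CD livers, so that every HFD liver exceeded every CD liver (1.37 ± 0.37, adjusted p = 0.20). At week 8 it was 65.6, 80.9, 40.2 and 47.5 FPKM in HFD and 101.1, 72.8, 119.2 and 83.6 FPKM in CD livers, with overlap and an estimate in the other direction (-0.70 ± 0.23, adjusted p = 0.11). At week 12 it was 122.8, 101.6, 92.05 and 115.05 FPKM in HFD livers against 28.6, 29.6 and 28.2 FPKM in 3 CD livers and 110.4 FPKM in mouse CD304. The week 16, 20 and 24 estimates were 1.19 ± 0.44, -0.09 ± 0.52 and 0.75 ± 0.38, and none passed.

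Week by week in liver, 1 of the 10 genes passed at week 12 and none at the other weeks. No gene of the 10 was called at week 4, where 0.0506% of genes were, and 4 of the 10 had an unadjusted p under 0.05 where 12.9% of all genes did. None was called either at week 8 (7.49% of genes called), week 16 (7.43%), week 20 (2.47%) or week 24 (0.837%), all by limma. An unadjusted p under 0.05 was found for 1 of the 10 at week 8 (22.6% of all genes), 2 at week 16 (22.6%), 2 at week 20 (15.3%) and 0 at week 24 (15.6%). At week 12, where 10.6% of genes were called, Elovl5 passed with 1.79 ± 0.25 (adjusted p = 0.0079).

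Elovl5 at week 12 was 235.2, 286.8, 151.2 and 243.0 FPKM in HFD livers and 69.6, 94.8, 46.8 and 53.1 FPKM in CD livers. The groups did not overlap. At week 8, 3 of the 4 HFD livers were at 259.6, 358.7 and 175.4 FPKM and mouse HFD217 at 47.9 FPKM, below the CD range of 58.5 to 126.3 FPKM (0.94 ± 0.61, adjusted p = 0.41, and adjusted p = 0.032 without HFD217). HFD217 was picked for its low Elovl5 value, so the fit without it is a description and not independent support. By week 24 the estimate was -0.44 ± 0.32.

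All 10 estimates were positive at week 12, with a median of 1.26 beside 0.11 over all genes. These genes vary together between livers, so 10 like signs are not 10 independent observations. Of the 10, 8 had an unadjusted p under 0.05 where 30.3% of all genes did. The count at this week turned on 1 mouse. Liver CD304 had 43.1 FPKM of Fasn while the other 3 CD livers had 5.03, 5.92 and 7.16 FPKM, and 332.1 FPKM of Thrsp against 16.7, 37.6 and 47.5 FPKM. The 4 HFD livers had 39.0, 49.96, 24.6 and 48.7 FPKM of Fasn and 460.8, 176.2, 148.25 and 719.05 FPKM of Thrsp. Without CD304, 8 of the 10 genes were called higher in HFD livers, where 20.9% of the genes tested were called in either direction (1863 of 10085 higher). CD304 was picked for its high values of these same genes. Leaving it out lowers the CD mean and the CD spread of these genes, so these calls are a description and not independent support.

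Those 8, in the fit without CD304, spanned the pathway from its regulator to its last steps. Srebf1 had 1.86 ± 0.11 (adjusted p = 0.00012), Fasn 2.52 ± 0.24 (adjusted p = 0.0016) and Thrsp 3.25 ± 0.68 (adjusted p = 0.024). Acly had 1.14 ± 0.17, Acaca 1.08 ± 0.15, Acacb 1.47 ± 0.25, Elovl6 1.56 ± 0.35 and Elovl5 1.84 ± 0.29, with adjusted p between 0.0032 and 0.022. Me1 (0.67 ± 0.21, adjusted p = 0.053) and Scd1 (1.63 ± 0.69, adjusted p = 0.14) did not pass. Nothing in the labels sets this mouse apart, so the values with all 4 mice remain the main ones. These were 1.39 ± 0.43 for Srebf1 (adjusted p = 0.075), 1.86 ± 0.65 for Fasn (0.11) and 2.41 ± 0.98 for Thrsp (0.15). Acly had 0.81 ± 0.32 (0.13), Acaca 0.76 ± 0.30 (0.13), Acacb 1.14 ± 0.36 (0.078) and Elovl6 1.05 ± 0.55 (0.24). Me1 had 0.56 ± 0.20 (0.094) and Scd1 1.40 ± 0.62 (0.18). None of these passed.

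The other weeks had other patterns. At week 16 all 10 estimates were positive, with a median of 0.47 beside 0.09 over all genes. At week 20 all 10 were negative, with a median of -0.80 beside 0.07 over all genes. The genes vary together between livers (median correlation of pairs 0.57), so 10 like signs are not 10 independent observations. Fasn at week 20 was 61.8 and 91.5 FPKM in CD501 and CD502, above the HFD range of 6.63 to 29.1 FPKM. It was 18.2 and 16.2 FPKM in CD505 and CD507, within that range. Hepatic Scd1 at week 20 was 139.9, 89.5, 106.1 and 99.2 FPKM in HFD livers and 360.4, 589.1, 321.5 and 2653 FPKM in CD livers. The groups did not overlap, and the estimate was -2.60 ± 0.64 (adjusted p = 0.092, and adjusted p = 0.010 without CD507, the highest CD liver). CD507 was picked for its own Scd1 value, and leaving it out lowers the CD spread. The second value is thus a description and not independent support.

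**Figure D2:**
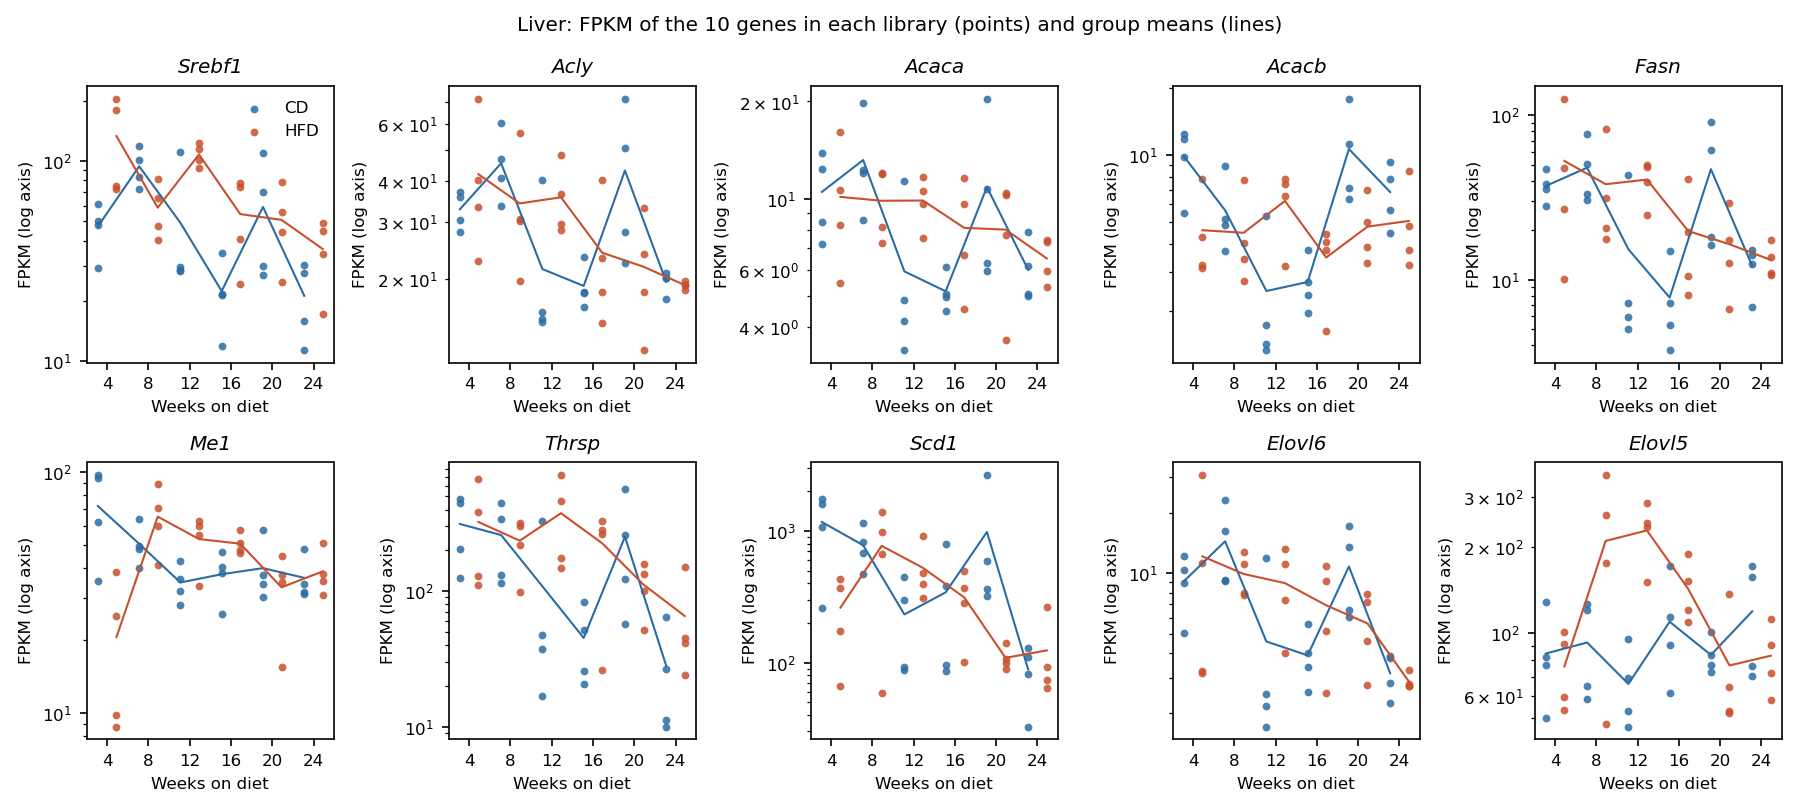
FPKM (log axis) of each gene against weeks on diet in the 48 livers, with a point per library and lines through the group means of CD and HFD. At week 12 one CD liver (CD304) lies with the HFD livers for Srebf1, Acly, Fasn, Thrsp and Elovl6, while for Elovl5 the groups do not overlap.

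Whether the diet effect differed between weeks was tested directly. In liver it did for Me1 (adjusted p = 0.010) and Acacb (adjusted p = 0.045), 2 of 10 genes, where 1.46% of genes were called. Me1 was 25.3, 8.75, 38.6 and 9.77 FPKM in HFD livers at week 4 against 35.4, 62.2, 94.3 and 97.3 FPKM in CD livers, which is lower except for 1 overlapping pair. The Me1 estimate was -1.90 ± 0.49 for week 4, 0.33 ± 0.23 for week 8, 0.56 ± 0.20 for week 12 and 0.09 ± 0.18 for week 24. Acacb had -0.97 ± 0.29 at week 4, 1.14 ± 0.36 at week 12 and -0.95 ± 0.31 at week 20. The Acacb call was lost in 31 of the 48 fits that left out 1 mouse, and the Me1 call in none.

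At week 4 the estimates were positive for Srebf1 and Acly (0.24 ± 0.29) and negative for the other 8 genes, with Scd1 lowest (-2.17 ± 0.72), and none passed.

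In islets Scd1 was the only one of the 9 genes past the filter that was called between diets over all weeks, where 38.6% of genes were. Its log2 fold change was -0.46 ± 0.07 (SE, 24 mice per diet, adjusted p = 1.6e-06). The mean was 0.802 ± 0.514 FPKM (SD, n = 24) in HFD and 1.44 ± 0.480 FPKM (SD, n = 24) in CD islets. With a pseudocount of 0.1, which compresses low values less, the estimate was -0.92. The other 8 estimates lay between -0.04 and 0.08, and the median was -0.0037 over the 9 and -0.0091 over all genes. Acacb, under 1 FPKM in every islet library, did not enter this test. Without the filter it was called lower (-0.14 ± 0.03, adjusted p = 5.3e-05), with means of 0.409 ± 0.0875 FPKM (SD, n = 24) in HFD and 0.550 ± 0.134 FPKM (SD, n = 24) in CD islets.

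Scd1 separated by diet at weeks 12 to 24. At week 4 it was 0.95, 2.01, 1.22 and 1.34 FPKM in HFD and 0.76, 1.63, 1.26 and 2.14 FPKM in CD islets, and at week 8 the group means were 1.42 ± 0.399 FPKM (SD, n = 4) and 1.37 ± 0.412 FPKM (SD, n = 4). The groups overlapped at both weeks. At week 12 it was 0.66, 0.70, 0.43 and 0.95 FPKM in HFD and 1.35, 1.22, 1.04 and 1.02 FPKM in CD islets, a separation without overlap that did not pass (-0.36 ± 0.11, adjusted p = 0.064).

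The filter on low values asked for 1 FPKM in 4 of the 8 libraries of a week, and at weeks 12, 16 and 20 only the 4 CD islets reached it, so Scd1 entered these 3 tests through the group in which it is high. At week 16 Scd1 was 0.52, 0.39, 0.53 and 0.55 FPKM in HFD and 1.56, 1.26, 1.79 and 2.34 FPKM in CD islets (-0.86 ± 0.11, adjusted p = 0.00024). At week 20 it was 0.92, 0.33, 0.22 and 0.30 FPKM in HFD and 1.57, 1.25, 1.37 and 1.26 FPKM in CD islets (-0.73 ± 0.14, adjusted p = 0.019). At week 24 it was 0.39, 0.48, 0.23 and 0.44 FPKM in HFD and 1.03, 0.65, 2.23 and 2.37 FPKM in CD islets, again without overlap, but too few libraries reached 1 FPKM for the gene to be tested. Scd1 made up on average 0.306% of the summed FPKM of the 10 genes in CD islets. Scd2 averaged 20.8 FPKM in CD and 20.9 FPKM in HFD islets over all weeks (-0.02 ± 0.09, adjusted p = 0.87). That average joins weeks of opposite direction. HFD means were higher at weeks 4, 8, 12 and 16, for example 22.9 against 17.3 FPKM at week 12, and lower at weeks 20 and 24. At week 20 Scd2 lay between 10.2 and 23.4 FPKM in HFD and between 26.0 and 28.6 FPKM in CD islets, without overlap.

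Alpha and delta cell markers were lower in the same libraries. All 3 alpha cell markers and both delta cell markers (Sst, Hhex) were called lower in HFD islets over the weeks. So were 4 of 9 acinar and 2 of 3 tested ductal markers, where 38.6% of all genes were called in either direction. The median acinar estimate differed in sign between weeks, at -1.63 for week 12 and 1.07 for week 20. Over all weeks the delta cell sum ranged from 322 to 3919 FPKM in HFD and 2117 to 4757 FPKM in CD islets, the acinar sum from 4000 to 51081 FPKM and 6067 to 149760 FPKM, and the ductal sum from 10.9 to 26.1 FPKM and 14.4 to 24.5 FPKM. The summed alpha cell markers ranged from 951 to 1964 FPKM in HFD and from 6685 to 12554 FPKM in CD islets at week 24. All 3 alpha and both delta markers were called lower at each week from week 8 on. The median alpha marker estimate was -0.58 at week 8, -1.33 at week 16 and -1.59 at week 24. For delta markers it was -0.73, -1.65 and -2.16 at the same weeks. Hepatocyte markers summed to 12.9 to 181 FPKM in HFD and 23.6 to 51.55 FPKM in CD islets. The adipocyte genes Adipoq and Plin1 reached at most 0.09 FPKM in any islet library, and the sum of the 7 adipocyte markers ranged from 11.8 to 81.3 FPKM in HFD and 7.40 to 40.2 FPKM in CD islets. Nearly all of that sum was a single gene of the list, Fabp4, at 11.6 to 81.3 FPKM in HFD and 7.09 to 39.8 FPKM in CD islets. The part of these cells in the Scd1 difference was not tested.

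Islet Srebf1 moved with the diet in opposite directions at different weeks. At week 8 it was 23.9, 23.1, 25.5 and 22.4 FPKM in HFD and 29.4, 32.1, 27.5 and 28.6 FPKM in CD islets, lower without overlap (-0.30 ± 0.07, adjusted p = 0.031). At week 12 it was 31.6, 33.8, 34.9 and 34.6 FPKM in HFD and 22.3, 27.4, 25.1 and 27.9 FPKM in CD islets, higher without overlap (0.38 ± 0.10, adjusted p = 0.019). At week 16 the groups again did not overlap, with HFD higher (0.22 ± 0.07, adjusted p = 0.053).

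The difference between weeks was called for 2 of the 9 genes, Srebf1 (adjusted p = 0.0015) and Scd1 (adjusted p = 0.027), where 4.25% of genes were. Averaged over weeks, islet Srebf1 had 0.06 ± 0.04 (adjusted p = 0.24). The week 8 call was lost in 5 of the 8 fits that left out 1 mouse and with median ratio scaling (-0.19). The week 12 call was lost without CD307 or without HFD316. With insulin left out of the library totals, the week 12 estimate became 0.66 while the median of all genes moved to 0.26.

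Week by week in islets, none of the 9 genes passed at week 4, where 0% of genes did and 3 of the 9 and 854 of all genes had an unadjusted p under 0.05 (limma). A single gene passed in each of week 8 (5.27% of genes called), week 12 (4.53%), week 16 (8.45%) and week 20 (4.74%). At weeks 16 and 20 this gene was Scd1, which passed the filter there only through the CD islets, in which it is high. At week 24, where 8.3% of genes were called, none of 8 passed and 1, Me1, had an unadjusted p under 0.05, as 23.3% of all genes did. Me1 was 8.86, 8.74, 10.4 and 8.29 FPKM in HFD and 7.31, 8.20, 7.51 and 6.12 FPKM in CD islets there (0.28 ± 0.10, adjusted p = 0.082).

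**Figure D3:**
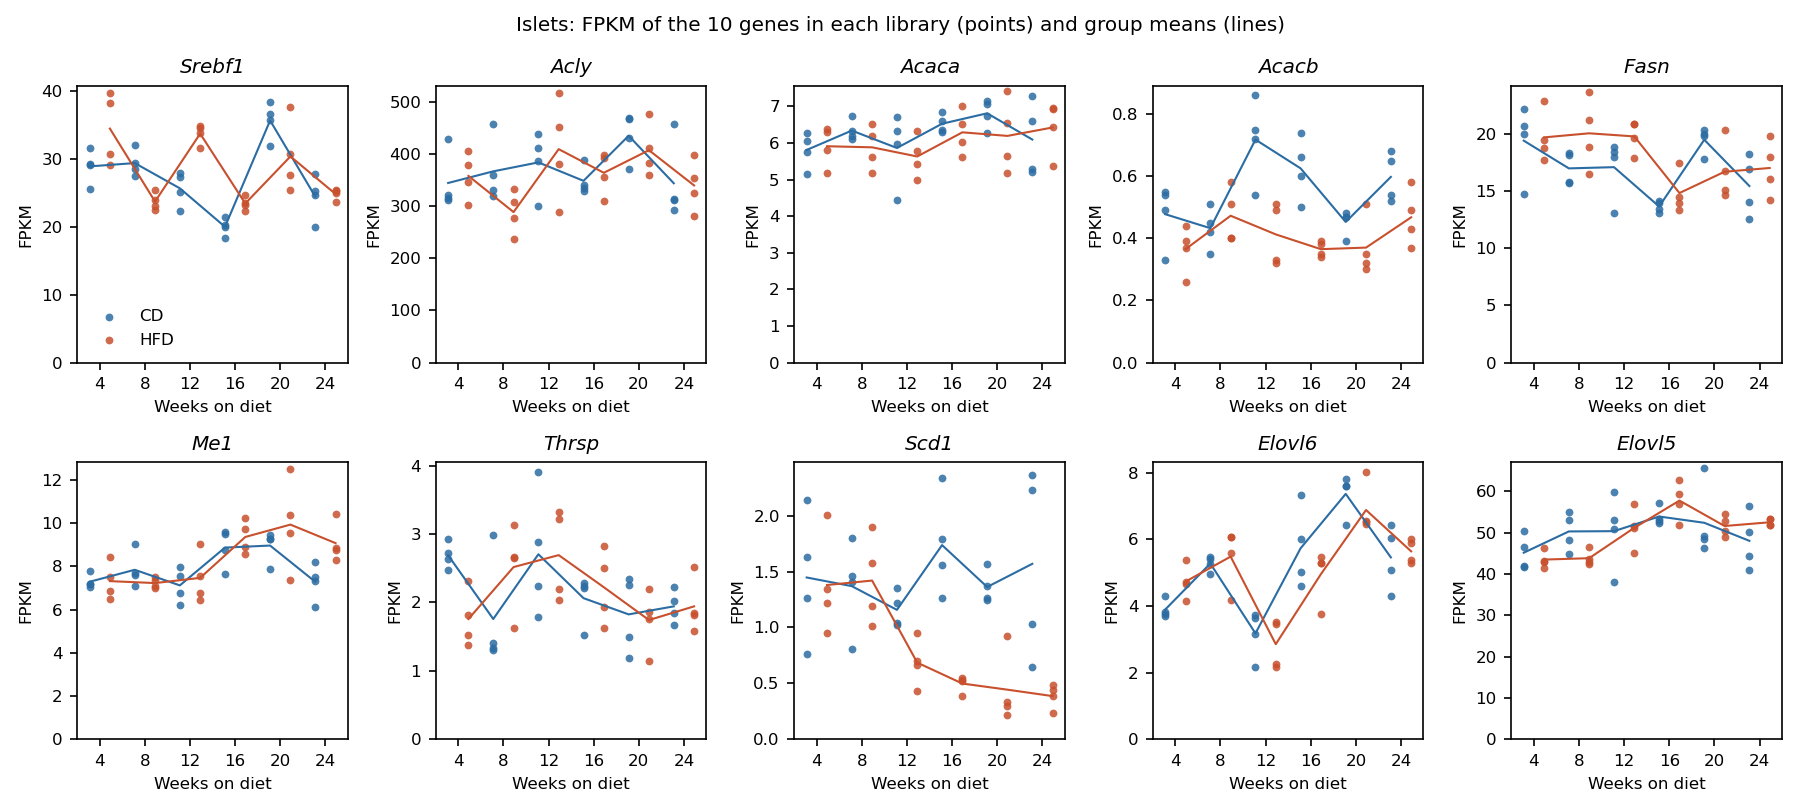
FPKM of each gene against weeks on diet in the 48 islet libraries, with a point per library and lines through the group means of CD and HFD. Scd1 separates by diet from week 12 on, while Srebf1 is lower in HFD at week 8 and higher at weeks 12 and 16.

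Over the weeks in CD islets, Srebf1 (adjusted p = 2e-08), Elovl6 (4.3e-08), Fasn (0.0026) and Me1 (0.019) changed, 4 of 9 genes where 77.5% of genes did. Srebf1 was lowest at week 16, at 20.0 ± 1.29 FPKM (SD, n = 4), and highest at week 20, at 35.7 ± 2.77 FPKM (SD, n = 4). Elovl6 went from 3.18 ± 0.722 FPKM (SD, n = 4) at week 12 to 7.37 ± 0.634 FPKM (SD, n = 4) at week 20. Acly, the most abundant of the 10, did not pass (adjusted p = 0.21). Acinar markers changed as well, all 9 of them, with summed levels of 61815 to 149760 FPKM at week 12 and 6067 to 18133 FPKM at week 20, and their part in these changes was not tested.

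**Figure D4:**
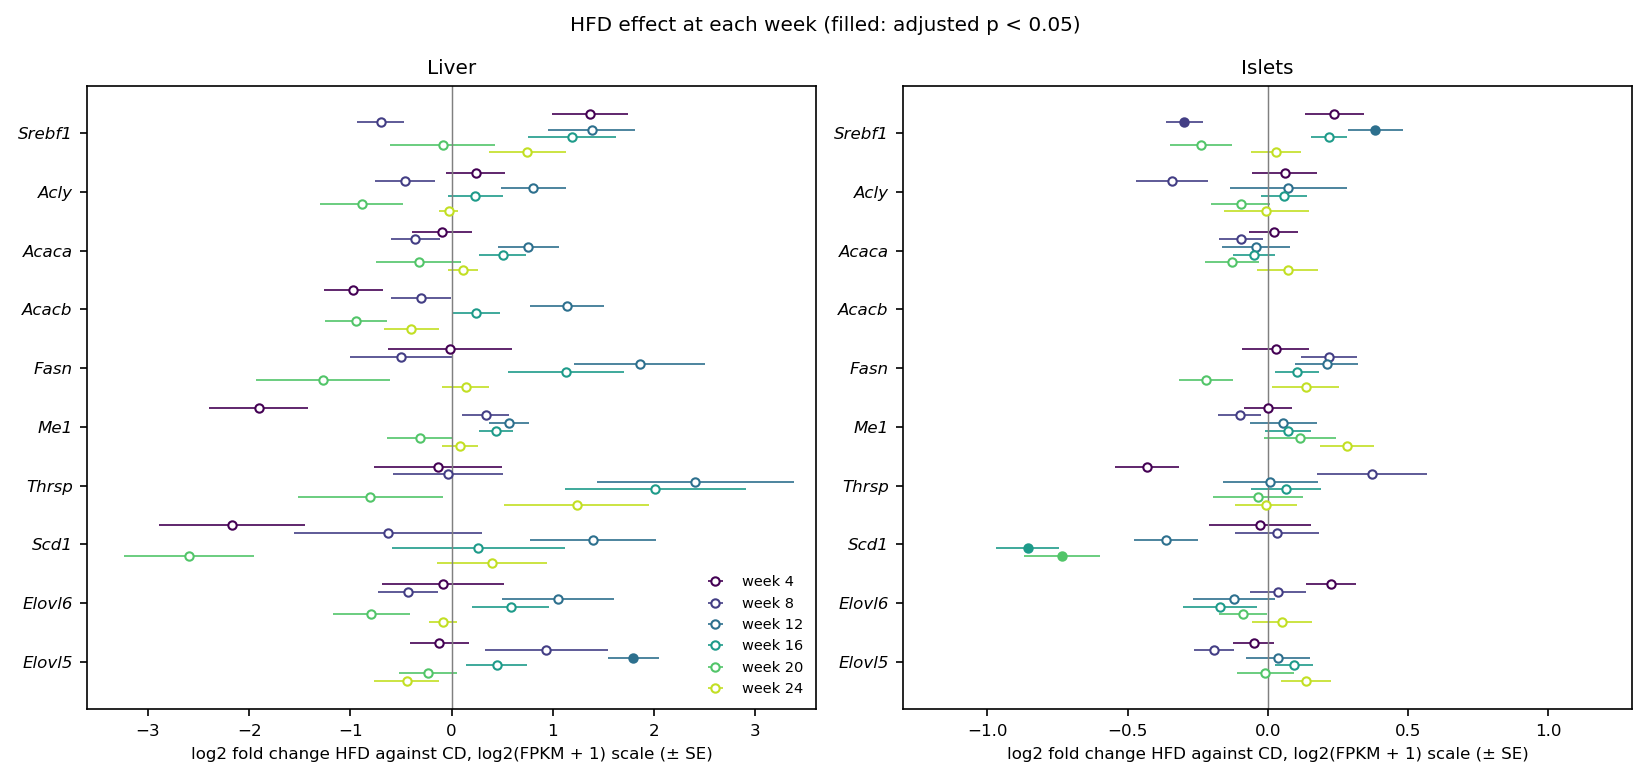
Log2 fold change of HFD against CD on the log2(FPKM + 1) scale (x axis, point ± SE, 4 mice per diet) for each gene and week in liver (left) and islets (right, narrower axis), with filled points for an adjusted p under 0.05. Only Elovl5 at week 12 is filled in liver, and Srebf1 at weeks 8 and 12 and Scd1 at weeks 16 and 20 in islets. Scd1 passed the filter on low values at weeks 16 and 20 only through the CD islets.

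The diet effect was set against itself between tissues through the difference of liver and islets within each mouse. Only Srebf1 of the 10 genes passed, where 44.5% of genes did. Its liver effect exceeded its islet effect by 0.59 ± 0.18 (SE, adjusted p = 0.0086). Thrsp (0.78 ± 0.37, adjusted p = 0.084) and Elovl5 (0.39 ± 0.18, adjusted p = 0.065) did not pass. For Scd1, the gene called in islets, the difference was -0.09 ± 0.34 (adjusted p = 0.84), so a diet effect particular to islets was not shown. The median of this difference over all genes was 0.09. Of 10 correlations between liver and islets of the same mouse, none had an adjusted permutation p under 0.05. The largest were for Me1 (r = -0.40, permutation p = 0.021, adjusted p = 0.21, rho = -0.32 with permutation p = 0.045, and r = -0.31 without the 2 farthest mice) and Elovl6 (r = -0.33, permutation p = 0.045, adjusted p = 0.23, rho = -0.29 with permutation p = 0.071, and r = -0.25 without those 2).

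Mice of one group with more hepatic Srebf1 also had more of most other lipogenic genes. Values were centred on the mean of each diet and week, and the 18 correlations were tested together by permutation within groups (two-sided, 100000 resamples, smallest possible p of 1e-05 before adjustment). In liver 6 of 9 passed, the smallest r among them being 0.39, and of the 10876 other genes tested 14.3% had an r with Srebf1 at least as large in size. Thrsp had r = 0.77 (adjusted permutation p = 6e-05, rho = 0.73 with adjusted p = 9e-05), Fasn r = 0.75 (9e-05, rho = 0.72 with 0.00012), Acly r = 0.74 (6e-05, rho = 0.68 with 0.00018), Acaca r = 0.67 (0.00048, rho = 0.59 with 0.0014) and Elovl6 r = 0.65 (0.00049, rho = 0.61 with 0.0012), all over 48 mice. Without the 2 mice farthest in Srebf1, CD304 and CD502, these were 0.72, 0.68, 0.67, 0.57 and 0.57. Acacb passed only by Pearson's r (0.39, adjusted permutation p = 0.046, rho = 0.29 with 0.15) and fell to 0.23 without those 2.

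Scd1 (r = 0.09, rho = 0.08), Elovl5 (r = 0.09, rho = 0.07) and Me1 (r = 0.11, rho = 0.10) did not pass over the 48 livers, with adjusted permutation p of 0.68 to 0.78. For these 3 the sign differed between diets. In CD mice r was -0.24, -0.27 and -0.35, and in HFD mice 0.46, 0.42 and 0.48. The difference between diets, tested after it was seen by permutation of the diet within weeks, had p = 0.014, 0.0072 and 0.012 and an adjusted p of 0.086 for each over 18 comparisons, so it did not pass.

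In islets 4 of 9 genes passed, the smallest r among them being 0.46, and 5.39% of the 12376 other genes tested had an r at least as large in size. The median r with Srebf1 over all genes was 0.17 in liver and 0.14 in islets, and these libraries share composition. Fasn had r = 0.70 (adjusted permutation p = 6e-05, rho = 0.68 with 9e-05), Acly r = 0.57 (0.00036, rho = 0.53 with 0.0016), Acaca r = 0.53 (0.0051, rho = 0.47 with 0.011) and Elovl5 r = 0.46 (0.0051, rho = 0.42 with 0.018). Without mice HFD511 and CD608 these were 0.65, 0.54, 0.44 and 0.42. Fasn, Acly and Acaca thus passed in both tissues. Islet Thrsp (r = 0.07, rho = 0.17) and Elovl6 (r = 0.05, rho = 0.04) did not pass (adjusted permutation p = 0.75 and 0.82), and whether these relations differ between tissues was not tested.

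**Figure D5:**
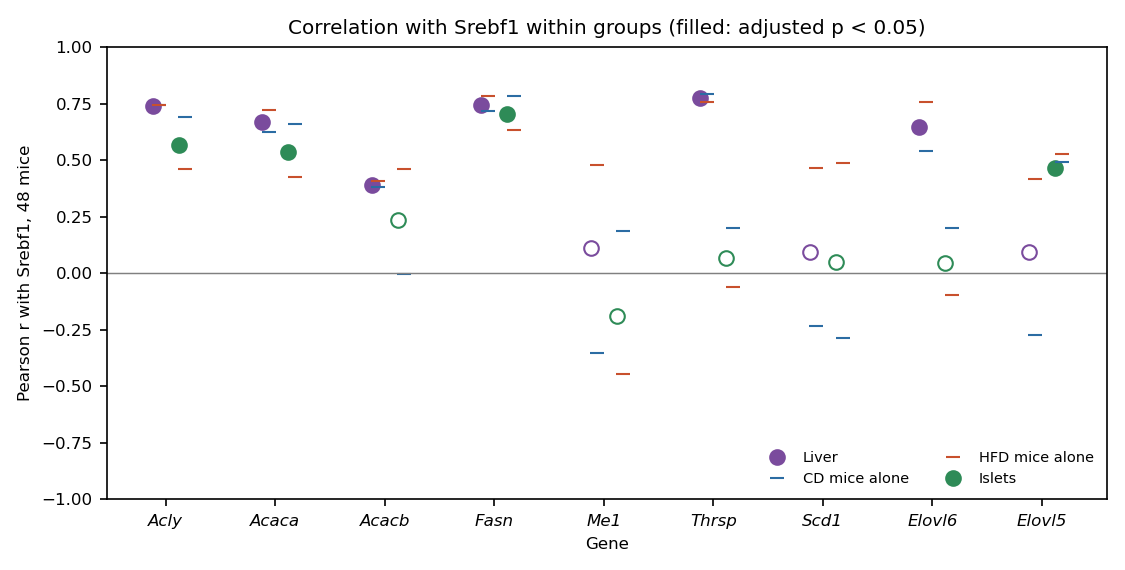
Pearson correlation of each of 9 genes with Srebf1 across 48 mice after centring on diet and week (circles, liver and islets, filled for an adjusted permutation p under 0.05), with dashes for CD or HFD mice alone. Fasn, Acly and Acaca are filled in both tissues, and the dashes of Scd1, Me1 and Elovl5 in liver lie on either side of 0.

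Promoters were read for motifs, and those of Srebf1, the 3 genes most correlated with it in liver (Thrsp, Fasn and Acly) and Elovl5, whose correlation did not pass, are printed. RefSeq (GRCm38.p6) gave 12 start sites for 9 of the 10 genes. In each, 250 bases before and 50 after the start were searched on both strands for TCACNCCAC (a form of the sterol regulatory element that SREBP binds), CACGTG (E-box), CCAAT (bound by NF-Y), GGGCGG (bound by SP1) and TATAAA. In Fasn a CCAAT and a reversed copy share bases. The sterol regulatory element form was in none of the 12 windows and in 1.24% of the 32851 promoters of the same length. CCAAT was in windows of Fasn, Thrsp, Elovl5, Acacb, Srebf1, Me1 and Acly (37.4% of all promoters), GGGCGG in those of Srebf1, Acly and Me1 (35.7%), CACGTG in that of Elovl5 (7.15%) and TATAAA in that of Acacb (13.6%). A match is a description of letters and not a binding site. No searched motif was found in the windows of Acaca and Elovl6, whose RNA was also correlated with that of Srebf1 in liver, and these are not printed. The 150 bases before the start are printed 5′ to 3′ in the gene's direction, with the searched motifs on either strand in capitals.
Srebf1, chr11:60222582-60222731, minus strand: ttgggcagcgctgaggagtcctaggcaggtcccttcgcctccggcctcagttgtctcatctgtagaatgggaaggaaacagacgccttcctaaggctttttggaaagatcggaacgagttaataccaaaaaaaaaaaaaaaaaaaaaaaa
Srebf1, chr11:60220628-60220777, minus strand: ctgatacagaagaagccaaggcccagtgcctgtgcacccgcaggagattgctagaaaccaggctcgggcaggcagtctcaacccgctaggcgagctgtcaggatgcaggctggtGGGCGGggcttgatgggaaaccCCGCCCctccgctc
Srebf1, chr11:60210472-60210621, minus strand: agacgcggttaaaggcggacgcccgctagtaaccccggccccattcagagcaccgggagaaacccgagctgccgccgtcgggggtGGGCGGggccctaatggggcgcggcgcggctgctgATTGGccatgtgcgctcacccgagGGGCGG
Fasn, chr11:120824548-120824697, minus strand: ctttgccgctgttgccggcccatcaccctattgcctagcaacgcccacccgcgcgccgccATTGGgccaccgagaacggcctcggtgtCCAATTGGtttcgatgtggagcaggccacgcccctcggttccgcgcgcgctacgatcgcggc
Acly, chr11:100528001-100528150, minus strand: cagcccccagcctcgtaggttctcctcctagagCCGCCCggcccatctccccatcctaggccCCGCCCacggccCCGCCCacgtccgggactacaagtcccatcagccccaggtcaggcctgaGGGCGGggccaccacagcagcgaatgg
Thrsp, chr7:97417551-97417700, minus strand: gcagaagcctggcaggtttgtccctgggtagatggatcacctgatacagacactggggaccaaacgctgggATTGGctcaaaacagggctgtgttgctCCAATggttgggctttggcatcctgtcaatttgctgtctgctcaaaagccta
Elovl5, chr9:77917215-77917364, plus strand: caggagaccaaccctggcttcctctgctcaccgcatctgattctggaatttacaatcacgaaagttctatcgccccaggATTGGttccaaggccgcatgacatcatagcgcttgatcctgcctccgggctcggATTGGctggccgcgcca

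Other genes of the pathway were counted from 5 lists of its neighbours, 48 genes in all. In liver 18 of the 43 tested were called over the weeks, 16 higher and 2 lower in HFD, and in islets 16 of 44, 11 higher and 5 lower. Both shares lie close to the 42.6% and 38.6% of all genes.

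For glucose entry and glycolysis, which feed the pathway with carbon, 3 of 6 genes rose in HFD livers (median of the list 0.28). Among them the phosphofructokinase gene Pfkl rose by 0.38 ± 0.07 and the pyruvate kinase gene Pklr by 0.48 ± 0.17. In islets 2 of 6 were called, both lower: the glucose transporter gene Slc2a2 at -0.36 ± 0.09 (239 FPKM in CD, 187 FPKM in HFD) and Pklr at -0.10 ± 0.04 (list median -0.07).

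Other elongases and desaturases were called for 6 of 9 tested genes in liver, all higher (median 0.19), among them Fads2, the delta-6 desaturase, at 0.55 ± 0.15 and Hsd17b12, the ketoreductase of elongation, at 0.53 ± 0.07 (67.8 FPKM in CD, 100.4 FPKM in HFD). In islets 3 of 10 rose and 1 fell (median 0.04), and the one that fell was Fads2 (-0.40 ± 0.07). The supply of acetyl-CoA and NADPH had 3 genes up and 1 down of 8 in liver (median 0.14), with Pgd at 0.44 ± 0.09 and Taldo1 at 0.35 ± 0.06, both of the pentose phosphate pathway, and acetyl-CoA synthetase Acss2 at -0.40 ± 0.10. In islets 4 rose and 1 fell (median 0.09), and Acss2 rose there (0.18 ± 0.03).

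Among 13 regulators, 2 rose and 1 fell in liver (median -0.04), with small changes for Nr1h3 (LXR alpha, 0.16 ± 0.04), Mbtps1 (the site-1 protease that cleaves SREBP, 0.15 ± 0.03) and Scap (the SREBP escort, -0.18 ± 0.05). In islets 2 of 12 rose, Nr1h3 (0.25 ± 0.05) and Insig2 (0.13 ± 0.03, list median -0.0029). Glycerolipid assembly had 2 of 7 genes up in liver (median 0.14), Gpam at 0.44 ± 0.09 and Dgat2 at 0.17 ± 0.07. In islets 2 rose, Pnpla3 (0.24 ± 0.03) and Agpat2 (0.12 ± 0.04), and Gpam fell (-0.16 ± 0.05), of 8 (median 0.03). All 4 macrophage markers rose in the same livers (summed 16.4 to 71.0 FPKM in CD, 22.1 to 164 FPKM in HFD), as did the 3 of 7 adipocyte markers past the filter (the full list summed to 3.37 to 27.5 FPKM in CD and 10.5 to 116 FPKM in HFD), and their part was not tested. Of the 7 adipocyte markers, 4 had a median under 0.1 FPKM in HFD livers.

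The genes moved together between livers. Over the 48 livers, the median Pearson correlation of the 45 pairs, centred on groups, was 0.57, and over the 36 pairs in islets it was 0.22. Against the mean of the other genes, hepatic Fasn (r = 0.87), Elovl6 (0.86), Acly (0.86) and Acaca (0.82) were closest and Scd1 (0.46) and Elovl5 (0.39) farthest. In islets Acaca (0.75) was closest and Me1 (0.04) and Scd1 (-0.06) farthest. These are descriptions over libraries that share depth and composition, and the genes outside the 10 most like their mean are named in the same way. In liver these were Pklr (r = 0.85), Pgd (0.82), the glycogen branching enzyme gene Gbe1 (0.79), Tkt (0.79), Slc25a44, Fads3, Mipep, Umps, Tkfc and Rpa1 (0.77 to 0.75). In islets they were Abca3 (0.88), Marchf8 (0.87, listed in the file under a date and named through its gene ID), the splicing factor genes Snrnp200 (0.85) and Prpf8 (0.85), Uvrag, Pik3r4, Arfgef2, Mtmr3, Capn2 and Supt6 (0.84 to 0.83).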

How the data were processed

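Liver and islet RNA of 48 mice was sequenced as 96 poly(A) libraries. FPKM values were deposited by the authors to 2 decimals, with one column per library. The submitters' processing notes name HISAT2 2.0.4, Bowtie2 2.2.5, RSEM 1.1.12, DESeq2 (no version) and GRCm38.p5. No counts came with these values, so depth is unknown, counting intervals cannot be given, and FPKM, being relative to the library, moves when a few genes (insulin in islets) take a large share. The authors' own comparison columns (fold changes, p-values and averages) were not used.

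Groups (tissue, diet, week, 4 libraries each) came from the labels. Values were taken as log2(FPKM + 1), genes were kept that reached 1 FPKM in 4 or more libraries of the fit, and limma 3.58.1 (R 4.3.3, mean-variance trend, robust) gave moderated tests. An adjusted p is Benjamini-Hochberg over all genes tested in that fit. Weekly comparisons used the 8 libraries of that week. The mean over weeks, the differences between weeks and the change over weeks in CD used all 48 libraries of a tissue in 12 groups. Tissues were compared through the difference of liver and islets within each mouse, since both came from the same animal. Correlations used permutation tests (numpy 2.4.6, scipy 1.17.1). The fits were tested on simulated data.

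The members and gene lists were chosen with earlier results of these data known. Named genes are all 10 members, up to 3 called genes with the largest mean diet effect from each of 5 lists in each tissue, and the 10 genes most correlated with the members' mean. The alternatives were a pseudocount of 0.1, no filter, median ratio scaling, insulin left out of the islet totals, one fit of 12 groups for the weekly comparisons, a minimum log2 fold change of 1, no replicate block, and leaving out each mouse. Values without mouse CD304, correlation differences between diets and Acacb without the filter were added after the data were seen. Scd1 has no promoter entry. Values of some listed genes are not reported here.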

Additional observations from a re-analysis of the deposited data

Results flagged for a closer look

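In each group of 4 libraries, the highest or lowest value was compared with the rest by Dixon's criterion, which chance alone meets in about 1 in 20 groups. Of 240 groups, 24 met it, where 12 would by chance. The liver of mouse CD304 (CD, week 12) did so for 6 genes, with Srebf1 at 110.4 FPKM (others 28.2 to 29.6), Fasn 43.1 FPKM (5.03 to 7.16), Acly 40.3 FPKM (14.8 to 15.9), Acacb 5.33 FPKM (1.34 to 1.74), Elovl6 11.8 FPKM (1.72 to 2.51) and Thrsp 332 FPKM (16.7 to 47.5). Its islets were low for Fasn, at 13.1 FPKM (18.0 to 18.9).

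Other livers that stood apart were CD507 for Scd1 at 2653 FPKM, HFD617 for Scd1 at 264 FPKM and Thrsp at 152 FPKM, HFD616 for Elovl6 at 3.28 FPKM and HFD511 for Elovl5 at 137 FPKM.

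Among islets, Acly was high in CD101 (429 FPKM), CD405 (389 FPKM) and CD601 (458 FPKM). Elovl6 was at 6.43 FPKM in CD505, 3.77 FPKM in HFD418 and 8.02 FPKM in HFD517. Elovl5 was at 65.6 FPKM in CD505, Me1 at 7.86 FPKM and Acacb at 0.39 FPKM in CD501, Scd1 at 0.92 FPKM in HFD511, and Thrsp at 2.99 FPKM in CD205 and 1.52 FPKM in CD403.

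The diet effect differed between weeks, by limma's F test, for hepatic Me1 (adjusted p = 0.0104) and Acacb (adjusted p = 0.0455) and for islet Scd1 (adjusted p = 0.0268) and Srebf1 (adjusted p = 0.00155). It differed between liver and islets for Srebf1 (adjusted p = 0.00865).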

How the results depend on the processing

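With FPKM alone, depth sets no limit that can be given, and the 4 livers per group and their spread limit what the weekly tests can call. With one fit of 12 groups, members called became 1 in week 4 livers, 5 in week 12 livers, 1 in week 20 livers and 1 in week 24 islets. With no filter members called became 1 for the liver effect by week (139 of 18453 genes called). In islets they became 0 at week 8 (154 of 18643), 2 at week 16 (1637 of 17908) and 2 on average (6127 of 19861). Median ratio scaling gave 0 at week 8 (165 of 11654) and 2 at week 16 (1234 of 11686) in islets. Leaving insulin out gave 3 at week 12 (3074 of 11112) and 6 at week 16 (5224 of 11704). It gave 4 on average (5729 of 12389), 4 by week (5444 of 12389) and 7 over weeks in CD (11156 of 12389). Calls thus rose over all genes as well, and the median of all islet genes moved from -0.0091 to 0.06 on average. A minimum log2 fold change of 1 left 0 for the liver average, for islets at weeks 8, 12, 16 and 20 and on average, and for the difference between tissues, and 5 for liver against islets. In the paired comparisons, dropping the replicate block left 8 and 1 called and changed no call.

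Leaving out 1 mouse, the liver counts were 0 to 0 at weeks 4 and 24, 0 to 1 at weeks 8 and 20, 1 to 8 for week 12 (8 without CD304), 0 to 3 for week 16 (3 without HFD411), 1 to 3 on average, 1 to 4 by week and 8 to 9 over weeks in CD. The islet counts were 0 to 0 for week 4, 0 to 2 for weeks 8 and 12, 1 to 2 for week 16, 0 to 3 for week 20, 0 to 1 for week 24, 1 to 1 on average, 2 to 2 by week and 4 to 6 over weeks in CD. They were 8 to 8 for liver against islets and 1 to 3 for the difference between tissues. The share of all genes called moves with the mouse left out. Without CD304 it was 20.9% in livers at week 12, 43.7% on average, 3.02% by week and 57% over weeks in CD. For the other mice left out this share is not reported here, so their counts cannot be read against it. The causes of these changes were not tested.

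Estimates that changed sign belonged to comparisons and correlations in which the gene was not called. Averaged over weeks in liver, leaving out 1 mouse gave -0.066 to 0.039 for Acly and -0.060 to 0.12 for Elovl6, which was -0.035 with median ratio scaling. In islets it gave -0.025 to 0.028 for Thrsp, -0.018 to 0.022 for Elovl5 and -0.032 to 0.0074 for Elovl6, and with insulin left out Thrsp was at 0.054, Acly at 0.040, Acaca at 0.032 and Elovl6 at 0.052. For the difference between tissues it gave -0.19 to 0.060 for Scd1, -0.024 to 0.099 for Acly and -0.050 to 0.16 for Elovl6. That difference was 0.36 for Scd1 and 0.14 for Acacb with a pseudocount of 0.1, -0.062 for Acly and -0.027 for Elovl6 with median ratio scaling, and -0.057 and -0.013 with insulin left out. Correlations with Srebf1 changed sign in CD livers for Scd1 (-0.24), Elovl5 (-0.27) and Me1 (-0.35), in CD islets for Acacb (-0.0045), Scd1 (-0.29) and Me1 (0.18), and in HFD islets for Elovl6 (-0.097) and Thrsp (-0.061).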

Other observations

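Lists of cell type and state markers were counted beside the members, averaged over weeks. In livers, 42.6% of all genes were called. There 3 of 8 hepatocyte, 3 of 4 tested beta cell and 1 of 1 tested alpha cell markers were called lower in HFD. Ins2 reached 2467 FPKM in CD306 and 1738 FPKM in CD407, both CD livers, against a median of 7.22 FPKM. The part of such libraries in the beta and alpha cell calls was not tested. None of 2 delta cell, 9 acinar, 3 ductal or 3 endothelial markers was called by limma, with the lowest adjusted p at 0.072 (Cdh5, endothelial). All 4 macrophage and 3 of 3 tested adipocyte markers (of 7 listed) were higher, with a median of 2.26 (log2) for the latter. Of 8 genes that liver induces on fasting, 3 were higher and 1 lower, and 1 of 9 clock genes was higher.

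In islets, where 38.6% of all genes were called, 4 of 8 beta cell markers were called higher and 2 lower. Of 7 hepatocyte markers 1 was called higher and 2 lower, and of 3 endothelial markers 1 higher and 1 lower. Also called higher were 1 of 1 tested adipocyte markers (of 7 listed) and 1 of 4 macrophage markers. Of the clock genes 2 of 10 were lower, and of the fasting genes 2 of 4 tested were lower.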
